A study of Homo sapiens with 12 samples.

Results

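Fatty acid oxidation takes acyl-CoA apart from its carboxyl end, in mitochondria for most chains and in peroxisomes for very long and branched ones. The 36 genes described here encode that machinery and were taken as a named list, of which every gene was among the 20117 genes of the table. They fall into 7 groups by role: 5 genes of the carnitine shuttle, 6 acyl-CoA dehydrogenases, 6 genes of the later mitochondrial steps, 4 isomerases and reductases, 3 genes of electron transfer, 6 genes of peroxisomal oxidation and transport, and 6 peroxins. The list was fixed by name and function, not by a measured value, but it was proposed with earlier results of these data known.

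In mitochondria, a long acyl chain is passed to carnitine, carried through the inner membrane and returned to CoA in the matrix. A dehydrogenase, a hydratase, a second dehydrogenase and a thiolase then remove acetyl-CoA in repeated rounds, and electrons reach ubiquinone through the electron transfer flavoprotein. Peroxisomes run a related spiral with their own enzymes, and peroxins build the organelle and import its proteins. In macrophages this pathway is one fate of the lipid that lipoproteins bring in.

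Bulk RNA was sequenced from 12 libraries in 4 groups of 3. THP-1 is a human monocytic leukaemia line, here matured by PMA, a phorbol ester, toward macrophages and kept in serum-free RPMI-1640, and EA.hy926 is a hybrid of an umbilical vein endothelial cell with the lung carcinoma line A549, kept in serum-free DMEM. The groups were THP-1 with 100 µg/mL of native LDL from donors labelled as having CVD, THP-1 in medium alone, EA.hy926 with the same LDL and EA.hy926 in medium alone, all for 24 h. Each line is a single immortal line, line and medium cannot be told apart, and the labels' cell type field calls THP-1 monocytes where their titles say macrophages. Replicates are labelled biological, with nothing on separate cultures, so the p-values below cover only how far these libraries spread, which may be technical.

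The values are normalised counts, read counts that the authors divided by a size factor for each library, and whole reads could be recovered from them. Depth ran from 4.32 M reads (EA.hy926 LDL replicate 2) to 11.0 M (THP-1 control replicate 2), and 1 read was worth 0.653 to 1.91 normalised counts. Member genes rested on 7 to 2193 reads per library. THP-1 libraries had 5 of 6 macrophage markers at a mean of at least 10, and CD68 was listed at 0. Their summed levels were 29844 to 33215 with LDL and 24327 to 26052 in controls, but single markers went both ways. CSF1R stood at 17080 to 18750 with LDL and at 8877 to 10120 in THP-1 controls, and MSR1 at 4210 to 5528 and 3401 to 3562. ITGAM was lower with LDL, at 2442 to 2601 against 4706 to 5064, while CYBB and CD14 overlapped between the groups. The 7 endothelial markers summed to 3257 to 3703 in THP-1 LDL libraries and 3306 to 3669 in THP-1 controls. Of these 7, CDH5, TEK and KDR were listed at 0 in THP-1, as were the 4 epithelial markers in the table. The other endothelial markers were present in THP-1 libraries, PECAM1 at 1055 to 1416, ENG at 1654 to 2266, TIE1 at 176 to 275 and VWF at 36.8 to 72.4. KDR was low in EA.hy926 too, at 1.91 to 18.6. EA.hy926 libraries had 6 of 7 endothelial markers at a mean of at least 10 with LDL and 7 of 7 in controls. Their summed levels were 16951 to 19341 with LDL and 18880.2 to 19468 in controls. Of the macrophage markers, CSF1R, CYBB, ITGAM and CD14 were listed at 0 in EA.hy926, and CD68 was above 0 only in control replicate 2, at 3.29. MSR1 stood at 171 to 184 with LDL and at 139 to 182 in controls. The epithelial markers KRT7, KRT18 and KRT8 were present in EA.hy926, and KRT19 was listed at 0. The epithelial markers summed to 12925 to 13099 with LDL and 10206 to 11068 in controls. The nuclear RNA MALAT1 held 3.15% to 3.35% of the counts in THP-1 LDL libraries and 1.57% to 1.73% in THP-1 controls, and the deposited totals were 9.09 to 9.20 M and 7.19 to 7.28 M. The part of these shifts, and of the macrophage markers', in the results below was not tested. RN7SL1, the RNA component of signal recognition particles, held 14.4% in EA.hy926 LDL replicate 3 and 12.7% in EA.hy926 control replicate 1, against 8.90% to 10.5% in the other 4 EA.hy926 libraries.

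In THP-1, 20 of the 36 genes fell with LDL and 6 rose. The fall covered all 5 genes of the carnitine shuttle and 5 of 6 genes of the later mitochondrial steps, and 4 of 6 of peroxisomal oxidation and transport. HADH, ACADSB, ETFB and ACADM fell by more than 1 on the log2 scale, and no member rose by that much. The 26 called genes are 72.2% of the members, beside 64.5% of the 16167 genes tested in THP-1. By direction, 55.6% of the members were lower, beside 29.0% of all genes tested, and 16.7% were higher, beside 35.5%. The median log2 fold change was -0.25 over the members and 0.08 over all genes tested. The higher members were 3 under TMM and median-of-ratios scaling, with no trend and without THP-1 control replicate 1, and the members' median was -0.400 after quantile normalisation, beside -0.08 over all genes tested. Without the 6 peroxins, 19 of 30 genes fell and 4 rose. Calls are from limma on log2 of the normalised count plus 1, adjusted by Benjamini and Hochberg over all genes tested, with a threshold of 0.05, and fold changes are on that scale. In bulk RNA, fewer cells of a kind and less RNA per cell cannot be told apart.

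**Figure D1:**
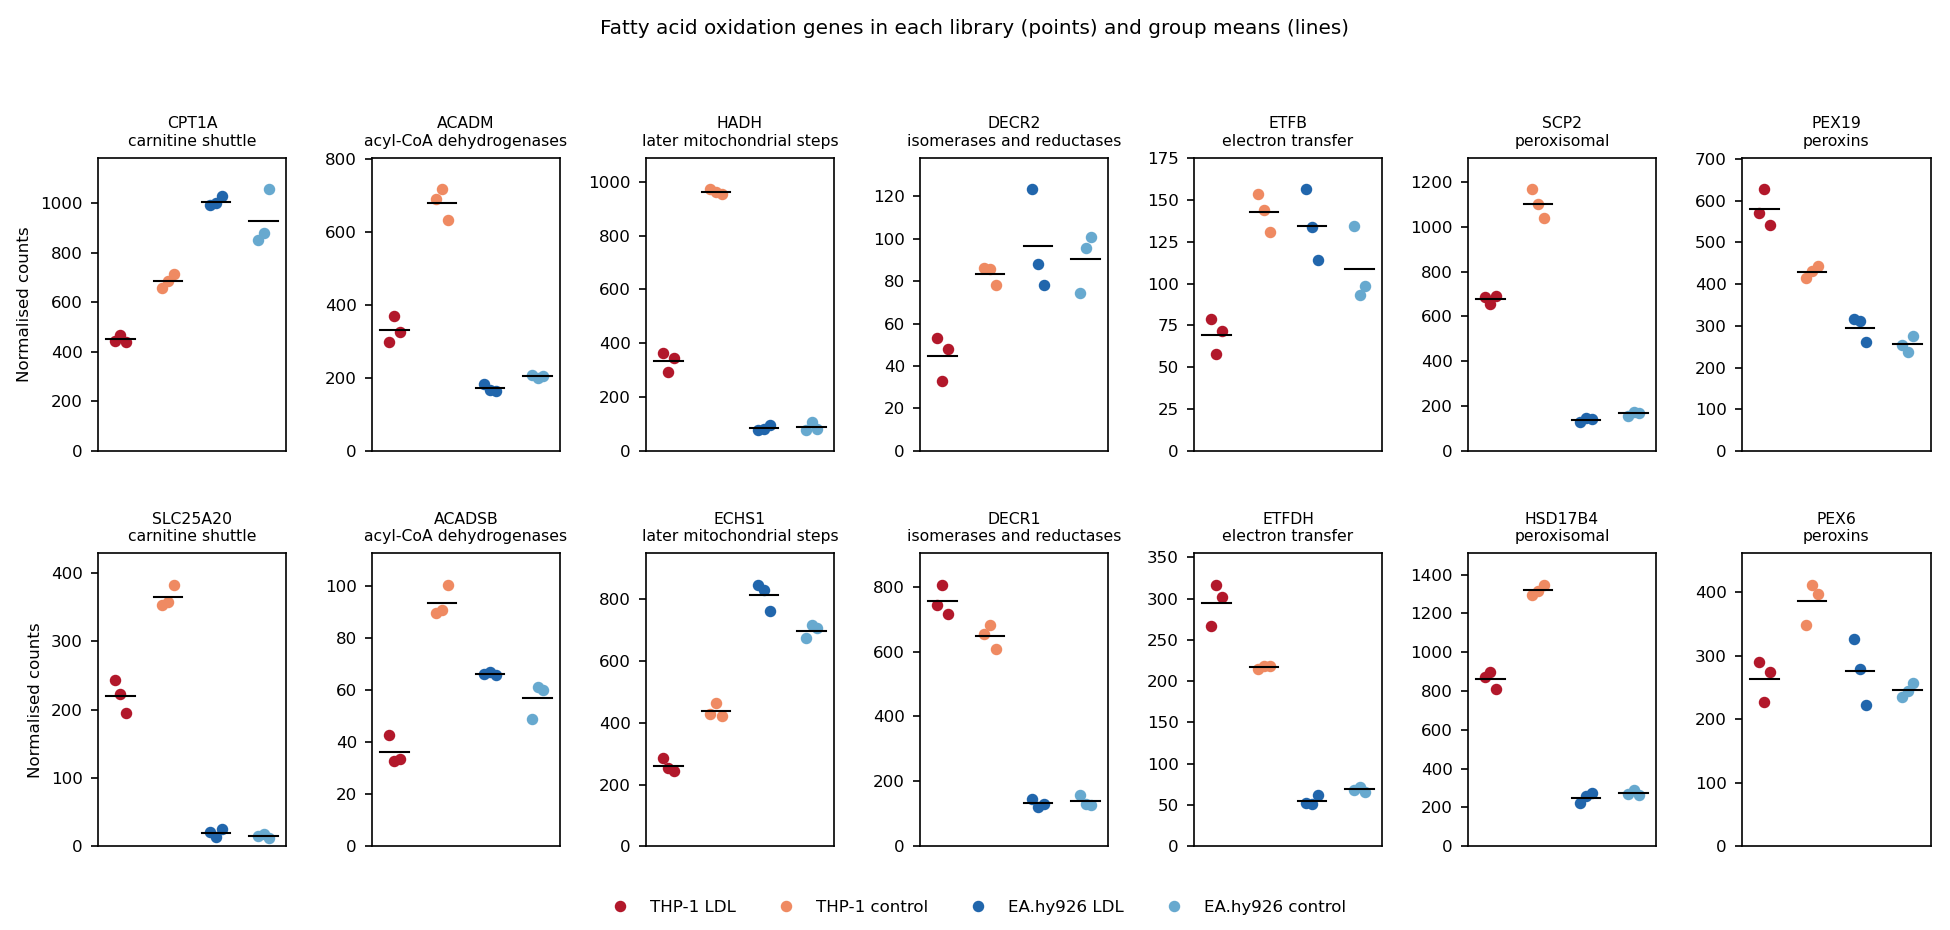
Normalised counts (vertical axis, from 0, scaled for each gene) of 14 genes, the pair with the smallest THP-1 adjusted p in each role group. Points are libraries and black lines are means of 3, from left to right THP-1 LDL, THP-1 control, EA.hy926 LDL and EA.hy926 control; HADH lies between 294 and 365 in THP-1 LDL libraries, far below the THP-1 controls.

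All 5 genes of the carnitine shuttle fell in THP-1. Values below are normalised counts in the order of replicates 1 to 3. CPT1A, the outer-membrane transferase that controls entry into the pathway, had 445, 470.4 and 439 normalised counts with LDL, against 660.2, 687 and 715 in controls. CPT1A fell by 0.61 on the log2 scale (SE 0.072, limma adjusted p = 8.57e-06), with all 3 LDL libraries below the controls. SLC25A20, the translocase that carries acylcarnitines through the inner membrane, had 244, 222 and 195 normalised counts with LDL, against 353, 357 and 382 in controls. Its log2 fold change was -0.73 (SE 0.099, limma adjusted p = 3.07e-05), and no LDL library reached the lowest control. CPT2, which returns the acyl group to CoA in the matrix, stood at 513, 474 and 532 with LDL and at 587, 610.3 and 632 in controls. CPT2 fell by 0.27 on the log2 scale (SE 0.075, limma adjusted p = 0.00703), and the groups stood apart. CROT, the peroxisomal transferase for medium-chain products, stood at 37.0, 52.6 and 36.5 with LDL and at 78.4, 98.7 and 71.4 in controls. The change was -0.97 on the log2 scale (SE 0.20, limma adjusted p = 0.000934), with every LDL value under every control value. CRAT, the transferase for acetyl groups, had 172, 145 and 153 normalised counts with LDL, against 172, 218 and 206 in controls. CRAT fell by 0.34 on the log2 scale (SE 0.12, limma adjusted p = 0.028), although the groups overlapped. The CRAT call was lost when LDL replicate 2 or 3 or control replicate 2 or 3 was left out, with adjusted p from 0.0595 to 0.141. It was also lost with DESeq2 (0.0662) and with no trend (0.0566). The promoter window of SLC25A20 is shown because this gene also differed most between the control cells of the lines. It spans 250 bases before to 50 after the RefSeq start site (GRCh38.p14, chr3:48898833-48899132, minus strand), with the 3 GC boxes (GGGCGG on either strand) in capitals.
SLC25A20: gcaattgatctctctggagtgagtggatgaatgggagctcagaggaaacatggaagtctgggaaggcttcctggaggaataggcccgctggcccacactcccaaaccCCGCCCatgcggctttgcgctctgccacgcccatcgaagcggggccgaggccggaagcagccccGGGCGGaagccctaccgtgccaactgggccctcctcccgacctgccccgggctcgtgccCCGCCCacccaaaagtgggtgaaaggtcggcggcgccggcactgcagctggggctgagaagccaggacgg

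Of the 6 acyl-CoA dehydrogenases, 3 fell in THP-1, none rose and 3 did not pass the test. ACADM, the enzyme for medium-chain acyl-CoA, had 299, 369 and 327 normalised counts with LDL, against 689.8, 716 and 632 in controls. ACADM's log2 fold change was -1.04 (SE 0.091, limma adjusted p = 4.99e-07), with all 3 LDL libraries below the controls. ACADSB, which acts on short branched acyl-CoA from isoleucine, stood at 42.8, 32.9 and 33.5 with LDL and at 89.7, 90.8 and 101 in controls. ACADSB fell by 1.35 on the log2 scale (SE 0.17, limma adjusted p = 1.91e-05), and no LDL library reached the lowest control. ACAD9, best known as an assembly factor of respiratory complex I, stood at 861, 816 and 929 with LDL and at 968, 989 and 969 in controls. The change was -0.17 on the log2 scale (SE 0.068, limma adjusted p = 0.0455), and the groups stood apart. The ACAD9 call was the closest to the threshold and was lost under 9 alternatives, among them leaving out any library except LDL replicate 3 (adjusted p from 0.0779 to 0.141). ACADVL, the enzyme for very long chains, had 1251, 1133 and 1197 normalised counts with LDL, against 1043, 997 and 1205 in controls. ACAD8, which acts in valine breakdown, stood at 462, 459 and 426 with LDL and at 430.2, 444 and 441 in controls. ACADS, the short-chain enzyme, had 123, 90.7 and 115 normalised counts with LDL, against 120.2, 133 and 133 in controls. These 3 did not pass the limma test, with log2 fold changes of 0.15 for ACADVL (adjusted p = 0.122), 0.03 for ACAD8 (adjusted p = 0.707) and -0.24 for ACADS (adjusted p = 0.15), and their groups overlapped. The long-chain and medium-chain enzymes thus had LDL means of 1194 ± 59.2 and 332 ± 35.2, against control means of 1082 ± 109 and 679 ± 42.8 (SD, n = 3 each). The window of ACADM (GRCh38.p14, chr1:75724459-75724758, plus strand) is shown as that of a gene with a large fall, and its 4 GC boxes are in capitals.
ACADM: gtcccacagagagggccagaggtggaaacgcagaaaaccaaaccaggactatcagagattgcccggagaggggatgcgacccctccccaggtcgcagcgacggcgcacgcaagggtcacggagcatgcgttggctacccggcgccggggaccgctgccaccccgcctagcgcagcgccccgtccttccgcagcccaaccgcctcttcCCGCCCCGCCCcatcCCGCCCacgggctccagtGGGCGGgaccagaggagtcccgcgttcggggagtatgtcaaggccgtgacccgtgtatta

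The later mitochondrial steps held the largest fitted fall of the list and also a gene that rose. HADH, the hydroxyacyl-CoA dehydrogenase for short and medium chains (ENSG00000138796.18, chromosome 4, 107989714 to 108035175, plus strand, GRCh38), had 365, 294 and 344 normalised counts with LDL, against 971, 961 and 954 in controls. HADH fell by 1.53 on the log2 scale (SE 0.085, limma adjusted p = 5.89e-09), with every LDL value under every control value. ECHS1, the short-chain hydratase of the matrix, had 286, 254 and 244 normalised counts with LDL, against 428, 463 and 422 in controls. Its log2 fold change was -0.75 (SE 0.09, limma adjusted p = 9.74e-06), with all 3 LDL libraries below the controls. HSD17B10, a dehydrogenase of isoleucine breakdown that is also a subunit of mitochondrial RNase P, stood at 145, 106 and 125 with LDL and at 233, 188 and 195 in controls. HSD17B10 fell by 0.71 on the log2 scale (SE 0.14, limma adjusted p = 0.000515), and no LDL library reached the lowest control. ACAA2, the matrix thiolase for medium chains, had 141, 151 and 131 normalised counts with LDL, against 214, 191 and 202 in controls. The change was -0.52 on the log2 scale (SE 0.11, limma adjusted p = 0.00103), and the groups stood apart. The window of HADH (GRCh38.p14, chr4:107989639-107989938, plus strand) is shown as that of the gene with the largest fitted fall, with its 2 GC boxes in capitals.
HADH: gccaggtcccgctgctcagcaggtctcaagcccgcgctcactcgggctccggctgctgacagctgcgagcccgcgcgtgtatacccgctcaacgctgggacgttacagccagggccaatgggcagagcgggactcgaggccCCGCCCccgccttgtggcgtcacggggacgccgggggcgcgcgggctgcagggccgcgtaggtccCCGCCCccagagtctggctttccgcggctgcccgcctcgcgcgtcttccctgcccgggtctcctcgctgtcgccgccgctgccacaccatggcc

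HADHA and HADHB encode the subunits of the trifunctional protein, which runs the hydratase, dehydrogenase and thiolase steps on long chains, and their calls had opposite signs in THP-1. HADHA, the subunit with hydratase and dehydrogenase activity, had 1332, 1268 and 1102 normalised counts with LDL, against 1441, 1433 and 1388 in controls. HADHA fell by 0.21 on the log2 scale (SE 0.074, limma adjusted p = 0.0269), with every LDL value under every control value. HADHB, the thiolase subunit, stood at 1165, 1246 and 1026 with LDL and at 950.2, 955 and 1003 in controls. HADHB's log2 fold change was 0.24 (SE 0.077, limma adjusted p = 0.0159), with all 3 LDL libraries above the controls. Both calls depended on the processing. HADHA was not called without LDL replicate 3 (log2 fold change -0.13, adjusted p = 0.0998) or without any of the 3 controls (adjusted p from 0.0522 to 0.0894). The HADHA call was also lost in a joint fit of all 12 libraries (adjusted p = 0.428) and with no trend (0.108), and the HADHB call with no trend (0.0776). HADHB was not called under TMM (adjusted p = 0.122), median-of-ratios (0.0876) or quantile scaling (log2 fold change 0.02, adjusted p = 0.861), nor without control replicate 1 (0.061) or control replicate 2 (0.0644). The ratio of HADHA to HADHB within a library does not depend on a scaling by library. It was 1.14, 1.02 and 1.07 in THP-1 LDL libraries and 1.52, 1.50 and 1.38 in THP-1 controls, with no overlap. On the log2 scale the ratio differed by -0.45 (LDL minus control, exact permutation test, two-sided p = 0.1, the smallest that 3 against 3 can give). In EA.hy926 the ratio was 0.615, 0.961 and 1.30 with LDL and 1.05, 0.820 and 0.715 in controls, and the log2 difference was 0.11 (exact permutation p = 0.8). The ratio was examined after both genes' values were seen. In EA.hy926 HADHA varied more than HADHB. It had 459.5, 663 and 946 with LDL and 762, 591 and 499.8 in controls, highest in the LDL and the control library with the highest RN7SL1 shares. HADHB there had 747, 689 and 729 with LDL and 728, 721 and 699 in controls.

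**Figure D2:**
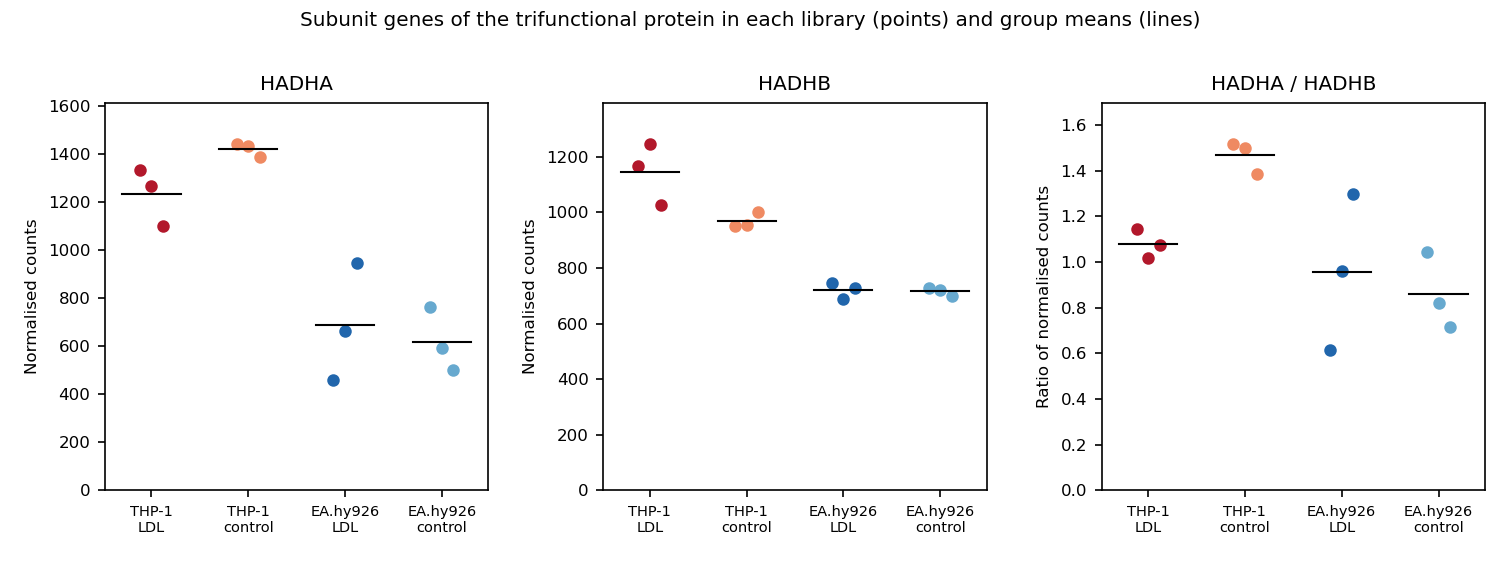
Normalised counts of HADHA and HADHB and their ratio within each library (vertical axes, from 0) in, from left to right, THP-1 LDL, THP-1 control, EA.hy926 LDL and EA.hy926 control. Points are libraries and lines are means of 3; the THP-1 LDL ratios lie between 1.02 and 1.14, below all THP-1 control ratios, while the EA.hy926 groups overlap.

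HADHA and HADHB lie head to head on chromosome 2, with RefSeq start sites 307 bases apart at 26244632 on the minus strand and 26244939 on the plus strand. Their promoter windows (GRCh38.p14, HADHA chr2:26244583-26244882, minus strand; HADHB chr2:26244689-26244988, plus strand) share 194 bases, from 26244689 to 26244882. The shared stretch is in capitals below, each window being written from its own strand, and is shown because the calls of this gene pair had opposite signs.
HADHA: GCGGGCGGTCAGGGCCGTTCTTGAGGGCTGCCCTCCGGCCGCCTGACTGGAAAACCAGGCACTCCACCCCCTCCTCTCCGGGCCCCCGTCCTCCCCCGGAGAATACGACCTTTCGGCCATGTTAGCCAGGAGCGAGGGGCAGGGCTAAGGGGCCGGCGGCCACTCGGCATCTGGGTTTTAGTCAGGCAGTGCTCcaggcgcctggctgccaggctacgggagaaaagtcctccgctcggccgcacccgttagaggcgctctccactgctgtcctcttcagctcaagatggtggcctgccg
HADHB: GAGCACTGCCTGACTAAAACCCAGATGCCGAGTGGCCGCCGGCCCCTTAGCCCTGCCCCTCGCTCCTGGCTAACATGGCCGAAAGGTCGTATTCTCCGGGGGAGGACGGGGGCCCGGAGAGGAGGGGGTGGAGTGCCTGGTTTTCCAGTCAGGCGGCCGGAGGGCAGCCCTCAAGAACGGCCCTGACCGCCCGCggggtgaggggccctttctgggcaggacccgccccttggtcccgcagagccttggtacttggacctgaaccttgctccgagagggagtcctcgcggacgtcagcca

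Among the isomerases and reductases, which prepare unsaturated chains for the spiral, 1 gene fell, 1 rose and 2 did not pass the test in THP-1. DECR2, the peroxisomal dienoyl-CoA reductase, had 53.2, 32.9 and 48.1 normalised counts with LDL, against 86.2, 85.6 and 78.0 in controls. DECR2 fell by 0.91 on the log2 scale (SE 0.20, limma adjusted p = 0.0013), with all 3 LDL libraries below the controls. DECR1, the mitochondrial dienoyl-CoA reductase, stood at 742, 805 and 716 with LDL and at 654, 680.2 and 608 in controls. The change was 0.22 on the log2 scale (SE 0.075, limma adjusted p = 0.0206), and every LDL library was above the highest control. The DECR1 call was lost under TMM (adjusted p = 0.163), median-of-ratios (0.109) and quantile scaling (0.322), and without control replicate 1 (0.0523) or 3 (0.0954). It was also lost with no trend (0.0725) and in the joint fit (0.0902). ECI1, a mitochondrial enoyl-CoA isomerase, had 290.2, 255 and 249 normalised counts with LDL, against 264, 281 and 273 in controls. ECI2, an enoyl-CoA isomerase of peroxisomes and mitochondria, stood at 55.5, 40.7 and 48.1 with LDL and at 55.7, 52.9 and 58.3 in controls. The isomerases did not pass the test, with log2 fold changes of -0.04 for ECI1 (adjusted p = 0.697) and -0.22 for ECI2 (adjusted p = 0.319) and overlapping groups. The peroxisomal and mitochondrial reductases thus had calls of opposite sign, of which that of DECR2 held under every alternative run.

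Of the 3 genes of electron transfer, 1 fell, 1 rose and 1 did not pass the test in THP-1. ETFB, the beta subunit of the electron transfer flavoprotein, had 78.6, 57.8 and 71.4 normalised counts with LDL, against 153, 144 and 131 in controls. ETFB fell by 1.04 on the log2 scale (SE 0.15, limma adjusted p = 5.04e-05), and no LDL library reached the lowest control. ETFA, the alpha subunit, stood at 703, 686 and 728 with LDL and at 673, 668 and 636 in controls. ETFDH, the dehydrogenase that passes the electrons to ubiquinone, stood at 267, 317 and 302 with LDL and at 214, 218 and 219 in controls. Its log2 fold change was 0.44 (SE 0.095, limma adjusted p = 0.0013), and the groups stood apart. ETFA was higher with LDL in every library but did not pass the test, with a log2 fold change of 0.10 (adjusted p = 0.218). The calls of ETFB and ETFDH held under every alternative run.

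In the peroxisomal group, 4 of 6 genes fell and 1 rose in THP-1. SCP2, which encodes sterol carrier protein and a peroxisomal thiolase, had 684, 656 and 691 normalised counts with LDL, against 1166, 1100.4 and 1039 in controls. SCP2 fell by 0.70 on the log2 scale (SE 0.068, limma adjusted p = 1.38e-06), and the groups stood apart. HSD17B4, the D-bifunctional protein that hydrates and oxidises very long and branched chains, stood at 871, 899 and 811 with LDL and at 1298, 1313 and 1348 in controls. The change was -0.62 on the log2 scale (SE 0.065, limma adjusted p = 2.77e-06), with every LDL value under every control value. ABCD3, a transporter of the peroxisomal membrane, had 406, 418 and 389 normalised counts with LDL, against 574, 551 and 574 in controls. ABCD3 fell by 0.49 on the log2 scale (SE 0.073, limma adjusted p = 6.71e-05), with all 3 LDL libraries below the controls. In these 3 genes the gap between the groups exceeded the range within either. ACOT8, a peroxisomal thioesterase, stood at 141, 121 and 90.4 with LDL and at 165, 181 and 174 in controls. ACOT8's log2 fold change was -0.58 (SE 0.15, limma adjusted p = 0.00495), and no LDL library reached the lowest control. ACOX3, an acyl-CoA oxidase for branched chains, had 379, 311 and 337 normalised counts with LDL, against 273, 263 and 299.8 in controls. ACOX3 rose by 0.30 on the log2 scale (SE 0.098, limma adjusted p = 0.0178), with all 3 LDL libraries above the controls. The ACOX3 call was lost under TMM (adjusted p = 0.0891) and median-of-ratios scaling (0.0621), and without LDL replicate 1 (0.0686), control replicate 1 (0.0615) or control replicate 2 (0.0862). It was also lost with no trend (0.052) and in the joint fit (0.119). ACAA1, the peroxisomal thiolase for straight chains, stood at 573, 518 and 593 with LDL and at 489, 509 and 508 in controls. Every LDL library of ACAA1 was above the controls, but it did not pass the test, with a log2 fold change of 0.16 (adjusted p = 0.0868).

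The peroxins went both ways, with 2 of 6 higher and 1 lower in THP-1. PEX13, a part of the docking complex for imported proteins, had 429, 484 and 395 normalised counts with LDL, against 311, 318 and 331 in controls. The change was 0.44 on the log2 scale (SE 0.09, limma adjusted p = 0.000854), and every LDL library was above the highest control. PEX19, the chaperone and receptor of peroxisomal membrane proteins, stood at 571, 627 and 542 with LDL and at 414, 431 and 444 in controls. PEX19 rose by 0.43 on the log2 scale (SE 0.079, limma adjusted p = 0.000366), and the groups stood apart. PEX6, an ATPase that helps to recycle the import receptor, had 290.2, 227 and 274 normalised counts with LDL, against 348, 412 and 398 in controls. Its log2 fold change was -0.55 (SE 0.11, limma adjusted p = 0.000597), and the groups stood apart. All 3 of these calls held under every alternative run. PEX5, the import receptor for most matrix enzymes, stood at 189.6, 167 and 149 with LDL and at 151, 139 and 142 in controls. PEX3, the membrane anchor of PEX19, stood at 64.7, 77.5 and 97.7 with LDL and at 67.9, 75.1 and 68.6 in controls. PEX14, the partner of PEX13 in docking, had 157, 106 and 144 normalised counts with LDL, against 117, 132 and 145 in controls. The last 3 overlapped between groups and did not pass the test, with log2 fold changes of 0.22 for PEX5 (adjusted p = 0.123), 0.16 for PEX3 (adjusted p = 0.437) and 0.04 for PEX14 (adjusted p = 0.84). The window of PEX13 (GRCh38.p14, chr2:61017470-61017769, plus strand) is shown as that of a member that rose, level with ETFDH and PEX19 within their SEs, and its single GC box is in capitals.
PEX13: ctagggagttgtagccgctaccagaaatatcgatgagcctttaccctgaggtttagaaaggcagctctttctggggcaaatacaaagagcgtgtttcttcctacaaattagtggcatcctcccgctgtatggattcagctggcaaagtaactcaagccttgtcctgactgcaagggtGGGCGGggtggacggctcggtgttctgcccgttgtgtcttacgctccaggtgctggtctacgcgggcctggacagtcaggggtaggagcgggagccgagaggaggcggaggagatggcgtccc

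**Figure D3:**
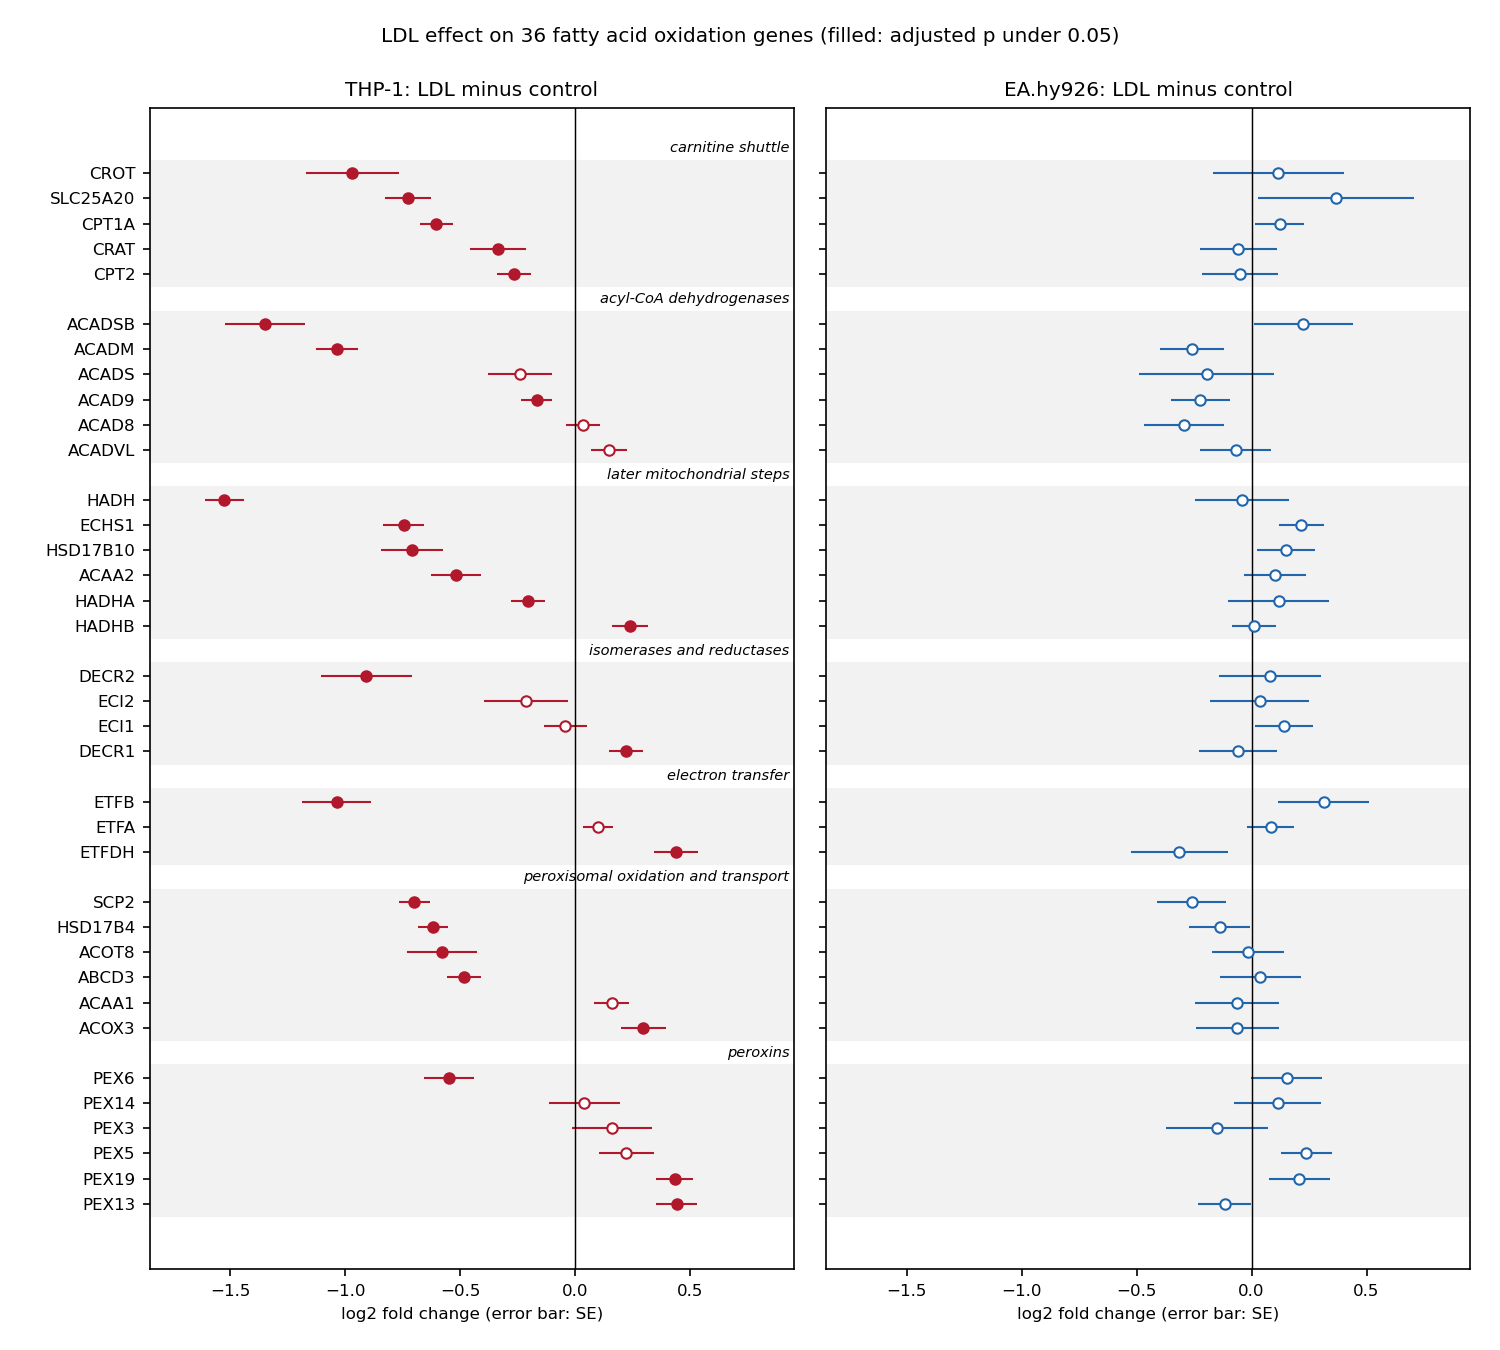
Log2 fold change of LDL over control (horizontal axis) of the 36 genes in THP-1 (left) and EA.hy926 (right), grouped by role, with bars of 1 SE; filled points passed an adjusted p of 0.05. In THP-1 the points run from -1.53 for HADH to 0.44 for PEX13 and 26 are filled, and in EA.hy926 they run from -0.31 to 0.37 and none is filled.

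The LDL and control libraries did not overlap for 27 of the 36 genes in THP-1, with LDL lower for 19 and higher for 8. Over all genes tested, the groups did not overlap for 68.9%, with all LDL libraries below the controls for 31.4% and above for 37.5%. Of the called genes, CRAT overlapped, and ETFA and ACAA1 did not overlap but were not called. The median coefficient of variation over members was 9.64% in THP-1 LDL libraries and 4.77% in THP-1 controls. Another scaling moved the level of all genes by more than 0.1 on the log2 scale: the median over all genes tested was 0.08 as deposited and -0.08 after quantile normalisation, with 5743 genes higher and 4682 lower as deposited and 4636 higher and 5728 lower after it. The count of lower members was 20 under each of the 3 scalings tried, while that of higher members was 3 under TMM and median-of-ratios scaling and 4 after quantile normalisation. Of the 26 calls, 20 held under every alternative run, and those of CRAT, ACAD9, HADHA, HADHB, DECR1 and ACOX3 did not. ACAA1 gained a call without LDL replicate 2 (adjusted p = 0.0137), PEX5 without LDL replicate 3 (0.0442) and ACADVL without control replicate 3 (0.0272). No called member changed its sign under any alternative. Among the members not called, the sign turned for ACAD8 under TMM, median-of-ratios and quantile scaling, for ACADVL and ETFA after quantile normalisation, and for PEX14 under TMM and median-of-ratios scaling and with LDL replicate 1, LDL replicate 3 or control replicate 1 left out.

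In EA.hy926 no member passed the test. Called genes were 2.01% of the 14202 tested there (0.873% higher and 1.13% lower). That background moved with the processing: the 124 higher genes were 78 without LDL replicate 2, 38 with a mean of at least 50 and 217 in the joint fit, and the 161 lower genes were 7 with a mean of at least 50 and 310 with no filter. Log2 fold changes of the members ran from -0.31 for ETFDH to 0.37 for SLC25A20, with SEs from 0.097 to 0.34, and their median was 0.02. The lowest unadjusted p was that of ECHS1, the only member below 0.05 before adjustment (limma adjusted p = 0.445), and edgeR and DESeq2 on the recovered reads called 0 members. This does not show that the genes did not respond. All LDL libraries lay above the controls for 3 members and below for another 3, beside 8.15% and 8.25% of all genes tested.

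Genes of the carnitine shuttle and acyl-CoA dehydrogenases in EA.hy926 were spread around their controls. CPT1A had 993, 1001 and 1029 normalised counts with LDL and 852, 881 and 1056 in controls, and SLC25A20 had 21.2, 13.4 and 24.6 and 15.3, 17.5 and 11.6. CROT had 67.5, 59.2 and 52.6 with LDL and 34.7, 70.2 and 67.3 in controls. These 3 shuttle genes overlapped between groups, unlike in THP-1. ACADSB had 66.2, 66.8 and 66.1 with LDL and 49.0, 61.4 and 60.3 in controls, and lay above them in all 3 LDL libraries. ACADM had 183, 168 and 163 with LDL and 209, 201 and 205 in controls, all 3 LDL values being lower. ACAD9 had 399, 416 and 345 with LDL and 399.9, 451 and 506 in controls. ACADM had a log2 fold change of -0.26 (SE 0.14, adjusted p = 0.524) and ACADSB one of 0.23 (SE 0.21, adjusted p = 0.735), so neither difference passed the test. ACADVL had 1419.5, 1123 and 1019 with LDL and 1039.5, 1174 and 1539 in controls, and ACAD8 had 253, 264 and 217 and 234, 297 and 385. Both groups overlapped for these 2 genes, with control replicate 3 the highest library of each.

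HADH had 79.5, 82.1 and 97.4 with LDL and 77.5, 109 and 82.3 in EA.hy926 controls, with overlapping groups. ECHS1 had 847, 831 and 761 with LDL and 674, 717 and 706 in controls, and every LDL library was above the controls, a log2 fold change of 0.22 (SE 0.099, adjusted p = 0.445). HSD17B10 had 359, 332 and 395 with LDL and 361, 306 and 312 in controls, and ACAA2 had 239.7, 262 and 274 and 262, 246 and 216. Neither was separated between the groups. ECI1 had 673, 579 and 567 with LDL and 636, 483 and 537 in controls, and ECI2 had 134, 84.0 and 147 and 122, 117 and 107. DECR1 had 147, 122 and 129.9 with LDL and 158, 131 and 128 in controls, and DECR2 had 123, 87.9 and 78.4 and 74.5, 95.4 and 101. The groups overlapped for all 4 of these isomerases and reductases. ETFB had 156, 134 and 114 with LDL and 135, 93.2 and 98.6 in controls, while ETFDH had 53.0, 51.6 and 61.6 and 68.3, 72.4 and 66.1. ETFDH was below its controls in every LDL library, a log2 fold change of -0.31 (SE 0.21, adjusted p = 0.625), and ETFB overlapped.

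Peroxisomal genes gave no call in EA.hy926 either. SCP2 had 131, 145 and 142 with LDL and 156, 175 and 170.4 in controls, all LDL values being lower, and HSD17B4 had 222, 258 and 273 and 271, 291 and 266. The log2 fold change of SCP2 was -0.26 (SE 0.15, adjusted p = 0.566). ABCD3 had 123, 129.9 and 137 with LDL and 114, 154 and 115 in controls, ACOX3 had 201, 206 and 165 and 158, 197 and 249, and ACAA1 had 294, 222 and 183 and 217, 220.5 and 284. These 3 overlapped between groups. PEX5 had 1107, 949 and 900.2 with LDL and 764, 875 and 862 in controls, with every LDL library higher and a log2 fold change of 0.24 (SE 0.11, adjusted p = 0.457). PEX19 had 315, 311 and 261 with LDL and 254, 238 and 275 in controls, and PEX13 had 327, 353 and 328 and 356, 352 and 386. PEX6 had 327, 279 and 223 with LDL and 235, 245 and 257 in controls, and PEX3 had 80.8, 55.4 and 80.6 and 86.7, 73.5 and 77.7. The groups overlapped for these 4 peroxins. The remaining 6 members with no EA.hy926 values above (CPT2, CRAT, ACADS, ETFA, ACOT8 and PEX14) had log2 fold changes from -0.20 for ACADS to 0.11 for PEX14.

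The response to LDL differed between the lines for 18 of the 36 genes. Over all 12534 genes tested for this difference, 47.1% were called, so the share of members called was near that of the background. By direction, 16 members (44.4%) had a lower log2 fold change in THP-1 than in EA.hy926, beside 21.9% of all genes tested, and 2 (5.56%) a higher one, beside 25.2%. The largest differences, THP-1 minus EA.hy926, were -1.57 (SE 0.26, adjusted p = 8.8e-05) for ACADSB, -1.49 (SE 0.20, adjusted p = 6.82e-06) for HADH, -1.35 (SE 0.26, adjusted p = 0.000296) for ETFB, -1.09 (SE 0.31, adjusted p = 0.00741) for SLC25A20 and -1.09 (SE 0.36, adjusted p = 0.02) for CROT, from the limma interaction. ETFDH (0.75, SE 0.20, adjusted p = 0.00424) and PEX13 (0.56, SE 0.14, adjusted p = 0.0039) were the 2 with the higher value in THP-1. The median difference was -0.27 over the members and 0.05 over all genes tested. By role, the difference was called for 3 of 5 shuttle genes (CPT1A, SLC25A20 and CROT), 2 of 6 dehydrogenases (ACADM and ACADSB), 4 of 6 genes of the later steps (HADH, ECHS1, ACAA2 and HSD17B10), DECR2, ETFB and ETFDH, 4 of 6 peroxisomal genes (HSD17B4, SCP2, ABCD3 and ACOT8) and 2 of 6 peroxins (PEX6 and PEX13). HADHA and HADHB did not pass, at -0.33 (SE 0.26, adjusted p = 0.325) and 0.23 (SE 0.12, adjusted p = 0.14). Of the 18 calls, 14 held under every alternative in which the gene was tested. SLC25A20, among these 14, was not tested with a mean of at least 50, since its EA.hy926 means were 19.7 with LDL and 14.8 in controls. ACOT8 (adjusted p = 0.0481) lost its call under 14 of them, among these the omission of any library except THP-1 LDL replicate 1 and replicate 1 of either EA.hy926 group (0.0555 to 0.14), SCP2 without THP-1 control replicate 1 (0.0509), CROT without THP-1 control replicate 2 (0.0625) or EA.hy926 control replicate 1 (0.0505), and ABCD3 without both EA.hy926 libraries of high RN7SL1 share (0.0609). HADHA gained a call without EA.hy926 LDL replicate 1 (log2 difference -0.59, adjusted p = 0.0291), and ACAD8 (0.51, 0.021) and ACOX3 (0.52, 0.0364) did so without EA.hy926 control replicate 1.

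The lines differed in their levels without LDL. Of the 36 genes, 30 differed between THP-1 control and EA.hy926 control libraries, which is 83.3%, beside 83.2% of the 16948 genes tested, so the share of members called was that of the background. THP-1 was higher for 21 members (58.3%, beside 45.7% of all genes tested) and lower for 9 (25.0%, beside 37.5%). SLC25A20 had 353, 357 and 382 normalised counts in THP-1 controls, against 15.3, 17.5 and 11.6 in EA.hy926 controls, a log2 difference of 4.55 (SE 0.16, adjusted p = 2.09e-07). HADH had 971, 961 and 954 in THP-1 controls and 77.5, 109 and 82.3 in EA.hy926 controls, a log2 difference of 3.43 (SE 0.13, adjusted p = 3.27e-07). For both genes every THP-1 control library was above every EA.hy926 one. SCP2, HSD17B4, DECR1, CPT2, ABCD3 and ACADS were higher in THP-1 by 2.71, 2.25, 2.22, 2.17, 2.16 and 2.02 on the log2 scale. PEX5 was the member most in favour of EA.hy926, with 151, 139 and 142 in THP-1 controls and 764, 875 and 862 in EA.hy926 controls, a log2 difference of -2.53 (SE 0.081, adjusted p = 1.3e-07). The other 8 lower in THP-1 were ECI2 (-1.04), ECI1 (-1.01), ETFA (-0.86), ECHS1 (-0.68), HSD17B10 (-0.67), CPT1A (-0.43), PEX14 (-0.38) and PEX13 (-0.19). CROT, ACADVL, ACAA2, DECR2, ACOT8 and PEX3 did not pass the test. This comparison shares its THP-1 control libraries with that of LDL in THP-1. Libraries of the lines did not overlap for 31 members, beside 84.7% of all genes tested. THP-1 was higher for 21 of these members, beside 46.5% of all genes tested, and lower for 10, beside 38.2%. Of the 30 calls, 24 held under every alternative run. CRAT lost its call without THP-1 control replicate 2 or 3 (adjusted p from 0.0685 to 0.0728), ACAD8 without any THP-1 control or EA.hy926 control replicate 2 (0.0575 to 0.0735), and ETFB without any control library except EA.hy926 replicate 1 (0.0757 to 0.153). ACOX3 lost it without any except EA.hy926 replicate 3 (0.052 to 0.111), PEX13 without THP-1 replicate 1 or 2 or EA.hy926 replicate 3 (0.0805 to 0.101), and PEX14 without THP-1 replicate 1 or 2 or EA.hy926 replicate 2 or 3 (0.0883 to 0.129). Processing settings also removed calls. ETFB lost its call with a pseudocount of 0.5, under each of the 3 scalings and with no trend (0.05 to 0.202). PEX13 lost it with edgeR, DESeq2, no trend, the replicate block and the joint fit (0.0625 to 0.123). CRAT (0.0634) and ACOX3 (0.0546) lost theirs after quantile normalisation, and PEX14 in the joint fit (0.0857). ACAA2 gained a call, lower in THP-1, under each of the 3 scalings (0.0156 to 0.045).

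**Figure D4:**
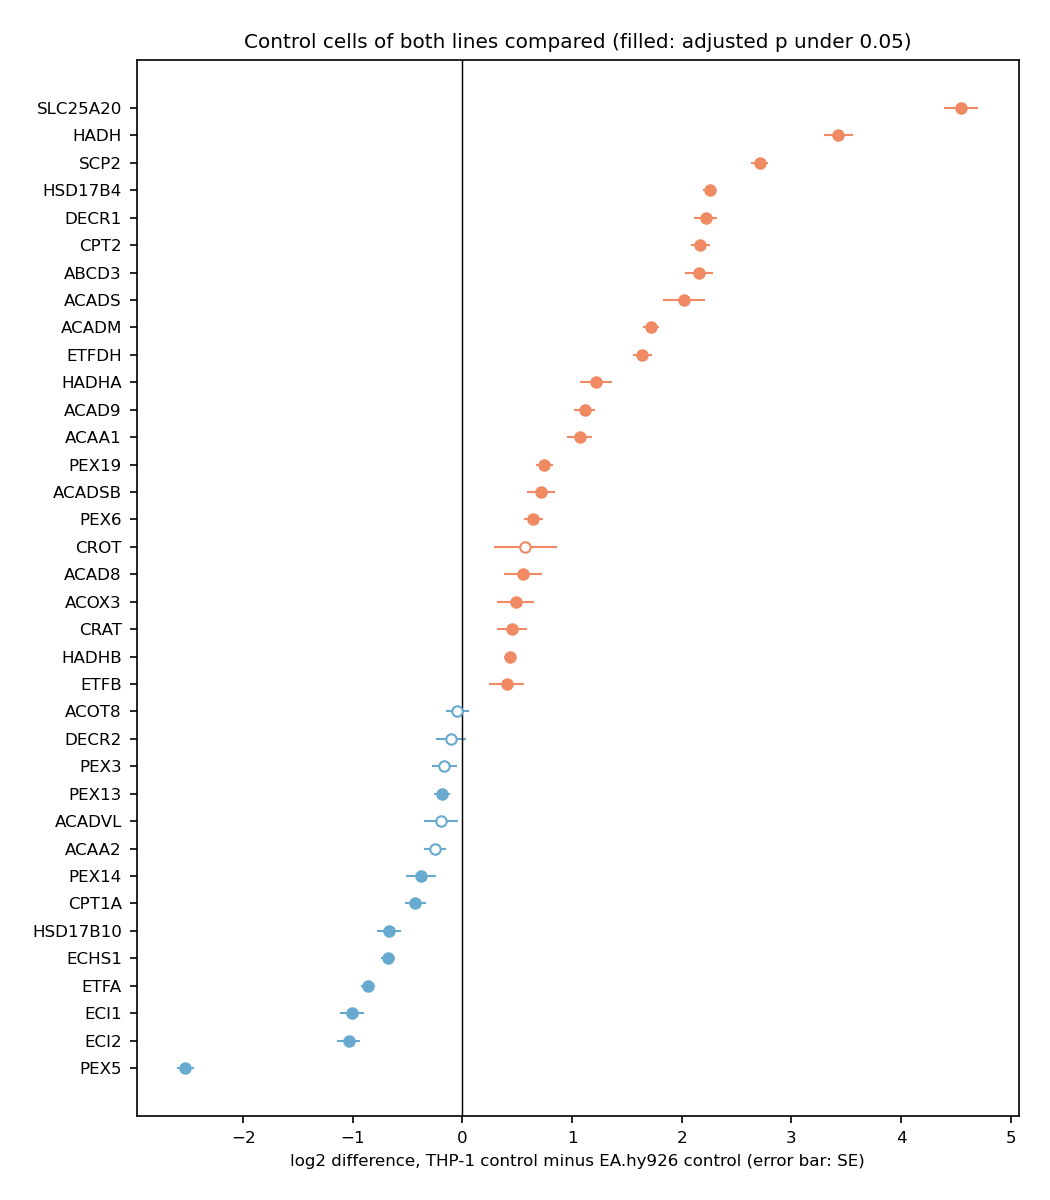
Log2 difference of THP-1 control minus EA.hy926 control (horizontal axis) for the 36 genes, ordered from highest to lowest, with bars of 1 SE; filled points passed an adjusted p of 0.05. SLC25A20 leads at 4.55 and PEX5 closes at -2.53, with 21 filled points above 0 and 9 below.

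Levels of different genes were compared per kilobase of exon (GENCODE 29). The length was that of all annotated exons of a gene, merged, and not that of a transcript, so the order depends on the annotation. With LDL, THP-1 had HADHA first at 281 ± 27.0 normalised counts per kilobase, HADHB next at 268 ± 25.9 and ACADVL after it at 245 ± 12.2 (SD, n = 3). These neighbours did not differ beyond their spread. In THP-1 controls HADHA was at 324 ± 6.54, ECHS1 at 271 ± 13.9 and HADHB at 226 ± 6.80. ECHS1, in place 2 there, was in place 6 with LDL, at 161 ± 13.6. EA.hy926 had the order ECHS1, HSD17B10 and ETFA with LDL, at 503 ± 28.2, 325 ± 28.3 and 253 ± 21.5, and in controls ECHS1 led at 432 ± 13.8 and HSD17B10 followed at 293 ± 27.1. The lowest members per kilobase were ACADSB in THP-1 LDL (5.82 ± 0.886), ECI2 in THP-1 control (12.2 ± 0.583), and HADH in EA.hy926 LDL (7.14 ± 0.802) and control (7.40 ± 1.38). In EA.hy926 HADH did not differ from SLC25A20, at 9.96 ± 2.91 with LDL and 7.47 ± 1.52 in controls, beyond their spread. HADH has 12086 bases of merged exons and SLC25A20 has 1982. Not divided by length, HADH had means of 86.3 normalised counts with LDL and 89.5 in controls there. Those of SLC25A20 were 19.7 and 14.8.

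Other genes of the pathway were read from lists outside the 36. Of 29 tested further genes of oxidation and transport, 15 fell and 4 rose in THP-1. For this list and the next 2, the background over all genes tested is 29.0% lower and 35.5% higher, and the share of regulators that fell was near it. CAT, the peroxisomal catalase, had 276, 294 and 252 normalised counts with LDL and 1064, 1051 and 1141 in controls, a log2 fold change of -1.98 (SE 0.08, adjusted p = 2.33e-10). ACACB, whose malonyl-CoA inhibits CPT1A, had 34.7, 40.7 and 45.2 with LDL and 199, 215 and 211 in controls, a change of -2.35 (SE 0.15, adjusted p = 1.59e-08). ACAT1, the mitochondrial acetoacetyl-CoA thiolase, had a change of -1.06 (SE 0.12, adjusted p = 5.58e-06). Of 15 other genes of peroxisome assembly and division, 6 fell and 3 rose, with -2.39 for PXMP2, -2.18 for PXMP4 and -0.78 for PEX26, the anchor of PEX6. Of 12 tested regulators, 4 fell and 1 rose. PPARD, a nuclear receptor for fatty acids, rose by 0.89 (SE 0.093, adjusted p = 2.5e-06), and PPARG and its partner RXRA had changes of -0.59 and -0.65. PDK4, a kinase that restrains pyruvate oxidation, had 1.16, 0 and 0 with LDL and 47.0, 49.7 and 39.5 in controls. In EA.hy926 none of 29, 14 and 10 tested genes of these 3 lists was called, with the lowest adjusted p at 0.468 (MCEE) in the list of oxidation and transport and at 0.626 (PPARD) in that of regulators.

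Promoter windows were found in the RefSeq table for 30 of the 36 genes (none for CRAT, DECR1, DECR2, ETFDH, ACAA1 and PEX14). The GC box GGGCGG, searched on both strands, was in a window of 25 of the 30 (83.3%), beside 48.3% of all genes with a window. The median GC content was 65.7% over member windows and 58.7% over all windows. Genes that fell (HADH, ACADM, SLC25A20) and a gene that rose (PEX13) carried it, as the windows printed above show. The element TGACGTCA was in windows of ACAD9 and ACOX3 (6.67%, beside 2.25%). The direct repeat of PPAR receptors (AGGTCA, any base, AGGTCA), the element TCAAGGTCA of ERR receptors and the palindromic NRF1 element were in none of the 30, and in 0.0293%, 0.432% and 1.52% of all genes. No member window had overlapping matches of different motifs. A match is only a run of letters, and its absence from this window says nothing about the factor.

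Exons of 19 of the 36 genes overlap another gene in GENCODE 29, 7 on the same strand and 13 on the other. The strand setting of the counting is not stated in these sources. The reads of ETFDH (beside C4orf46 and PPID), PEX6 (GNMT) and PEX13 (PUS10), with neighbours on the other strand, may therefore include or lack those of the neighbour. For ACADM (RABGGTB), DECR2 (NME4) and HSD17B4 (FAM170A) the neighbour is on the same strand, so the same holds under any strand setting.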

How the data were processed

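Total RNA of 12 libraries was analysed as one table of all genes. The authors deposited a normalised signal, gene read counts divided by a size factor per library, as the values show. STAR, HTSeq, DESeq2, FastQC, MultiQC and the build GRCh38 are named in the submitters' processing notes. Versions, annotation, strand setting and filters were not given in the sources used here. Of the deposited values 100% were whole multiples of the value of 1 read, within a tolerance of 0.001, so reads could be recovered. A whole group listed at 0 may reflect an unstated filter, and no fold is given against it. Within every group the replicates differed beyond counting noise. The chi-square per degree of freedom was 1.85 to 2.36 in THP-1 controls and 5.28 to 11.1 in THP-1 LDL libraries. It was 3.58 to 18.5 in EA.hy926 LDL libraries and 6.12 to 12.45 in EA.hy926 controls. No library was thus a copy of another, but this cannot tell repeated libraries of a culture from separate cultures.

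The test was limma 3.58.1 in R 4.3.3 on log2 of the normalised count plus 1, with an intensity trend, two-sided, adjusted by Benjamini and Hochberg over the genes whose mean reached 10 in a compared group (in a group of each line for the interaction). Each line was fitted alone, the interaction on all 12 libraries and the line comparison on the 6 controls. Alternatives were pseudocounts of 0.5 and 5, no filter, a mean of 50, TMM, median-of-ratios and quantile scaling, no trend, edgeR 4.0.16 and DESeq2 1.42.0 on recovered reads, a replicate block, a joint fit and each library left out. Scripts were tested on simulated data. Gene names came by identifier for 20104 of 20117 genes. The members and lists were chosen with earlier results of these data known. The rule for printing library values took the 2 members with the smallest adjusted p in each role group and line and those whose fold changes differ in sign between the lines; in THP-1 the values of all 36 are printed, beyond that rule.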

Additional observations from a re-analysis of the deposited data

Results flagged for a closer look

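For 18 of the 36 genes the limma interaction found that the response to LDL differed between THP-1 and EA.hy926. This share was near that of the background, since 47.1% of all 12534 genes tested were called. The direction differed from the background, with 16 members lower and 2 higher, beside 21.9% lower and 25.2% higher over all genes tested. As log2 differences, THP-1 minus EA.hy926, the carnitine shuttle gave -0.73 for CPT1A, -1.09 for SLC25A20 and -1.09 for CROT. The dehydrogenases gave -0.78 for ACADM and -1.57 for ACADSB, and the later steps -1.49 for HADH, -0.96 for ECHS1, -0.62 for ACAA2 and -0.86 for HSD17B10. DECR2 stood at -0.99, ETFB at -1.35 and ETFDH at 0.75. Peroxisomal genes stood at -0.48 for HSD17B4, -0.44 for SCP2, -0.52 for ABCD3 and -0.56 for ACOT8, and the peroxins at -0.70 for PEX6 and 0.56 for PEX13. Groups held 3 libraries each, too few to test a single library as an outlier. Line and medium cannot be told apart in these differences.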

How the results depend on the processing

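The 20 lower members in THP-1 became 17 to 20 under every alternative, and no called member changed its sign in any comparison, though some members near 0 that were not called did. Higher members in THP-1, 6 as reported, were 3 under TMM, median-of-ratios scaling and the fit with no trend, and 3 to 7 with a library left out. The median log2 fold change over all 36 members in THP-1, -0.25 as reported, was -0.400 after quantile normalisation. Counts over all genes in EA.hy926 were less steady. The 124 higher genes became 38 with a mean of at least 50, 217 in the joint fit, 78 to 168 with a library left out (78 without LDL replicate 2) and 201 without LDL replicate 3 and control replicate 1 together, an alternative chosen after seeing the data. The 161 lower genes became 310 with no filter, 7 with a mean of at least 50 and 256 in the joint fit. Higher members for the difference between the lines, 2 as reported, were 2 to 4 with a library left out (4 without EA.hy926 control replicate 1). The median over members of the line comparison, 0.52, was 0.478 under median-of-ratios scaling, 0.386 after quantile normalisation and 0.410 to 0.666 with a library left out, and the median over all genes turned to -0.025 after quantile normalisation. Replicate numbers did not pair the libraries (correlations of same-numbered libraries from -0.326 to 0.065). Libraries of different number reached 0.382, for EA.hy926 LDL replicate 3 with control replicate 1, the EA.hy926 libraries with the highest RN7SL1 shares. The replicate block gave 19 lower and 6 higher members in THP-1 and 0 in EA.hy926. It gave 15 lower and 2 higher for the difference, and 8 lower and 21 higher between the lines. The causes were not tested. Low reads limit ACADSB, CROT, DECR2 and ECI2 in THP-1 (under 50 in every LDL library; ACADSB had 23 to 37) and SLC25A20 and ACADS in EA.hy926.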
